A study of Mesocricetus auratus with 8 samples.

Results

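The EGF ligands and ERBB receptors are described here in hamster satellite cells (SCs), the muscle stem cells, before and after cold exposure. The 9 genes, of 17590 genes with values, were found by their gene symbols and comprise 6 ligands (Egf, Hbegf, Areg, Ereg, Tgfa and Nrg1) and 3 receptors (Egfr, Erbb2 and Erbb3). They were selected on their cold against control TPM and fold changes in these same libraries, which were already known, so these differences are given as a description. No p-value is given for them, and the counts of fits that called them are set beside the share of all genes called, with nothing read from them. Primary SCs were isolated from hindlimb muscles of sexually mature, wild-type male Syrian hamsters and purified by preplating, which removes fibroblasts by their faster adhesion, and not by a sort. All cells grew at 37°C for 48 h and then for 24 h in growth medium with 100 mM HEPES, and the growth medium was DMEM with serum of fetal calves at 30%, an extract of chick embryos at 1% and basic fibroblast growth factor at 10 ng/mL. EGF is not among the listed supplements, and what the serum and the embryo extract hold of it is not stated. Control libraries (n = 4) were made at that point, after 0 h in the cold, and cold libraries (n = 4) after 24 h more at 4°C with no medium change, so the cold libraries are also 24 h later in culture and no later 37°C library was analysed here. In the treatment field of the labels the time at 37°C runs from 3 to 6 days over the 4 controls, whereas each title says day 3. The labels do not say how many animals went into a library or what a replicate number marks.

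ERBB receptors are tyrosine kinases that pair when a ligand binds and then feed the RAS-ERK and PI3K-AKT pathways. Egf, Hbegf, Areg, Ereg and Tgfa encode membrane-bound precursors whose released parts bind EGFR, whereas neuregulin 1, the product of Nrg1, binds ERBB3 and ERBB4. ERBB2 binds no ligand of its own and ERBB3 has a weak kinase, so both signal through pairs with other receptors. In muscle, EGFR is known from activated SCs, where it steers the plane of division, and neuregulin from the nerve, where it acts on muscle and on Schwann cells. No mature ligand or receptor sequence is shown, because the files used here hold none.

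Libraries held between 16530747 and 18533801 expected counts. Replicates 1 and 2 stood apart from replicates 3 and 4 in both groups along the first principal component (53.9% of the variance), and control stood apart from cold along the second (17.9%). The 8 markers fixed for satellite cells and myoblasts were all detected, with a summed level of 1920 to 2280 TPM (transcripts scaled to a fixed total per library and corrected for gene length) in control and 1830 to 2120 TPM in cold libraries. All 7 fibroblast markers were detected as well, with a summed level of 1200 to 1290 TPM in replicates 1 and 2 and 1470 to 1740 TPM in replicates 3 and 4 of both groups. The 7 early myocyte markers summed to 4750 to 9080 TPM in control and 3320 to 5810 TPM in cold libraries. Defining markers of other cells were near 0, with at most 0.03 TPM of Ptprc and Adgre1 (macrophages), 0.36 TPM of Sox10 (Schwann cells) and 0.27 TPM of Epcam (epithelial cells) in any library. The remaining markers of these lists are shared with other cells. Cd68 and Csf1r kept the 4 macrophage markers at a sum of 25.9 to 30.6 TPM in replicates 1 and 2 and 40.2 to 55.7 TPM in replicates 3 and 4, Ncam1 held most of the 288 to 349 TPM of the 5 Schwann cell markers, and Krt18 most of the 181 to 278 TPM of the 4 epithelial markers. The 4 endothelial markers summed to 1.96 to 3.87 TPM.

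All 3 receptors were expressed, with mean levels within 3 times of each other, and none of them separated cold from control libraries. Egfr, the receptor of the EGF-type ligands, had 12.1, 13.1, 17.5 and 15.0 TPM in control replicates 1 to 4 and 14.8, 13.4, 16.7 and 15.7 TPM in cold replicates 1 to 4. The groups overlapped, with means of 14.4 ± 2.38 and 15.1 ± 1.38 TPM (SD, n = 4 each) and a log2 fold change of 0.04 (standard error 0.09). Erbb2, the receptor without a ligand, had 4.56, 5.40, 5.86 and 6.20 TPM in control and 5.46, 5.10, 6.99 and 6.24 TPM in cold libraries. Its means of 5.50 ± 0.710 and 5.95 ± 0.842 TPM (SD, n = 4 each) gave a log2 fold change of 0.09 (standard error 0.11), and in 3 of 4 pairs, each of a control and a cold library sharing a replicate number, the cold value was the higher. Because RNA was measured in bulk, fewer cells of a type and less RNA per cell cannot be told apart in any of these values.

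Erbb3, the receptor for neuregulin with a weak kinase, was the one receptor with the lower value in the cold in 4 of 4 pairs. It had 13.9, 15.3, 9.89 and 9.48 TPM in control replicates 1 to 4 and 9.84, 12.2, 7.66 and 6.08 TPM in the cold replicates. The groups overlapped because replicates 1 and 2 lay above replicates 3 and 4 within each condition, and the cold value of replicate 2 exceeded the control values of replicates 3 and 4. Within a replicate number the cold value was 0.706, 0.798, 0.775 and 0.641 times the control value, and each of these 4 differences exceeded 2 times its counting error. That error leaves out the variation between cultures, and the genes were selected on these same differences. Comparisons with it are thus a description, here and for the other genes. The log2 fold change was −0.47 with a standard error of 0.24, which became 0.05 when the replicate number was a block in the fit. The level of Erbb3 moved with that of the early myocyte markers, whose summed level was also lower in replicates 3 and 4 (3320 to 5130 TPM, against 4990 to 9080 TPM in replicates 1 and 2), and their part in the difference was not tested. Actc1 held most of that sum. The mean of each of the 7 markers was lower in the cold, and in replicates 3 and 4 it was lower for 6 of them, Mymx being the exception (237 TPM in replicates 1 and 2 and 244 TPM in replicates 3 and 4). Sox10, which marks Schwann cells, another known site of Erbb3, was at 0.09 to 0.36 TPM.

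**Figure D1:**
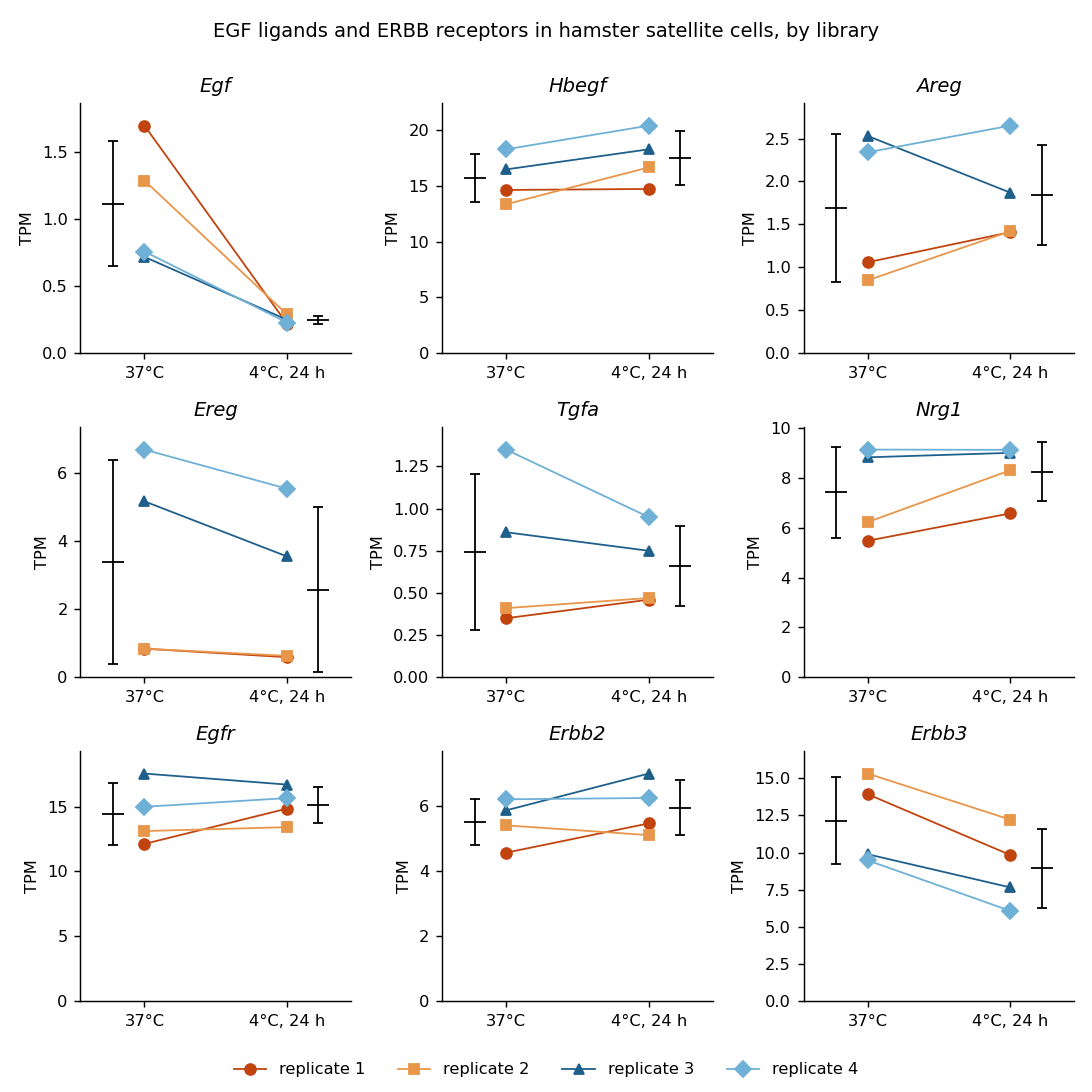
TPM of the 9 genes in each library at 37°C (control) and after 24 h at 4°C (cold), with a line between libraries of the same replicate number and black bars for the mean ± SD (n = 4 each). Egf is the one gene whose cold values (0.22 to 0.29 TPM) all lie below its control values (0.72 to 1.70 TPM), and in Ereg, Tgfa and Areg replicates 3 and 4 lie above replicates 1 and 2 in both conditions.

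Among the ligands, Hbegf and Nrg1 had the highest levels. Hbegf, which encodes heparin-binding EGF-like growth factor, had 14.6, 13.4, 16.5 and 18.3 TPM in control and 14.7, 16.7, 18.3 and 20.4 TPM in cold libraries. It was the one gene of the 9 that was higher in the cold in 4 of 4 pairs, by 1.01, 1.25, 1.11 and 1.12 times, with overlapping groups and a log2 fold change of 0.14 (standard error 0.11, or 0.07 with the replicate block). Only 2 of these 4 differences exceeded 2 times their counting error. Nrg1, the neuregulin gene, had 5.48, 6.23, 8.83 and 9.14 TPM in control and 6.58, 8.31, 9.01 and 9.13 TPM in cold libraries, a log2 fold change of 0.05 (standard error 0.14). Its cold to control ratio was 1.20 and 1.33 in replicates 1 and 2 and 1.02 and 0.999 in replicates 3 and 4.

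Egf, the gene of the family's founding ligand, had the lowest level of the ligands in the cold and, as a fold change, the largest difference between conditions of the 9 genes. In TPM it differed by less than Erbb3 and Hbegf, which had far higher levels. Control replicates 1 to 4 had 1.70, 1.29, 0.72 and 0.76 TPM, from 95, 75, 38 and 43 reads. Cold replicates 1 to 4 had 0.22, 0.29, 0.25 and 0.23 TPM, from 13, 16, 14 and 13 reads. The groups did not overlap, and the cold libraries lay close together whereas the controls were spread over a range of more than 2 times, with replicates 1 and 2 above replicates 3 and 4. The means were 1.12 ± 0.467 and 0.247 ± 0.031 TPM (SD, n = 4 each), 4.52 times lower in the cold. The log2 fold change was −2.19 (standard error 0.34), and −2.18 (standard error 0.22) with the replicate block. In a fit to replicates 1 and 2 alone it was −2.61 (standard error 0.27) and in a fit to replicates 3 and 4 alone −1.59 (standard error 0.30), and whether these values differ was not tested. Each of the 4 pairs differed by more than 2 times its counting error, and the cold to control ratios were 0.129, 0.225, 0.347 and 0.303. The summed level of the early myocyte markers was also higher in replicates 1 and 2, and their part in the difference of Egf was not tested. In the cold, replicates 1 and 2 had 1.06 times the Egf level of replicates 3 and 4, against 1.61 times for Erbb3. Adding 1 TPM before taking logs shrank the log2 fold change to −0.74, since that pseudocount is larger than every cold value.

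Every member but Egf differed more between replicates 1 and 2 and replicates 3 and 4 than between conditions on log2(TPM + 0.1), and the gap between replicate numbers was widest in Ereg, Tgfa and Areg. Ereg, the epiregulin gene, had 0.84, 0.84, 5.17 and 6.69 TPM in control and 0.59, 0.63, 3.55 and 5.54 TPM in cold libraries. The mean of replicates 3 and 4 was 7.06 times that of replicates 1 and 2 in control and 7.45 times in cold libraries, whereas cold values were 0.702, 0.750, 0.687 and 0.828 times the control values of the same number. Thus, although the cold value of Ereg was the lower in 4 of 4 pairs, the groups overlapped almost fully, and its log2 fold change of −0.39 had a standard error of 0.83, or 0.13 with the replicate block. When single libraries were left out, the log2 fold change ranged from −1.09 without cold replicate 4 to 0.17 without control replicate 4, the libraries with the highest level of their groups.

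Tgfa, which encodes transforming growth factor alpha, had 0.35, 0.41, 0.86 and 1.35 TPM in control and 0.46, 0.47, 0.75 and 0.95 TPM in cold libraries. It was higher in the cold in replicates 1 and 2 and lower in replicates 3 and 4, with a log2 fold change of −0.18 (standard error 0.42) that ranged from −0.41 without cold replicate 4 to 0.26 without control replicate 4. Areg, the amphiregulin gene, had 1.06, 0.85, 2.53 and 2.34 TPM in control and 1.41, 1.42, 1.87 and 2.65 TPM in cold libraries, from 10 to 30 reads each. None of its 4 pairs differed by more than 2 times the counting error, and its log2 fold change was 0.12 (standard error 0.37), or −0.04, −0.10 and −0.11 without control replicate 1, control replicate 2 or cold replicate 4. For both genes the levels in replicates 3 and 4 were above those in replicates 1 and 2, by 2.31 times in Tgfa and 1.98 times in Areg over both conditions.

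**Figure D2:**
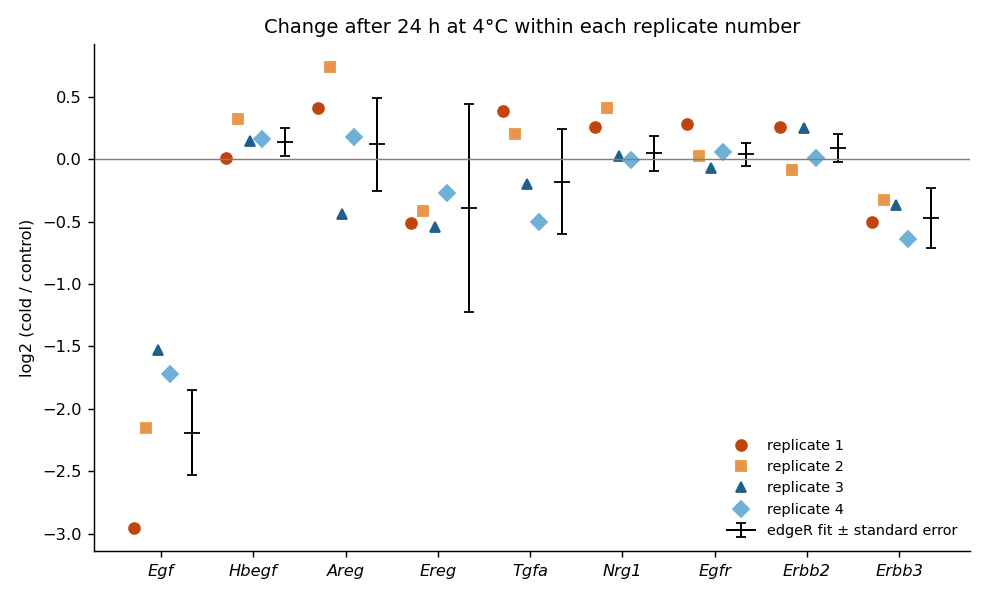
Log2 of the cold over the control TPM within each replicate number (coloured points) and the log2 fold change of the edgeR fit without a block (black, ± standard error) for the 9 genes. All 4 pairs lie below 0 in Egf, Ereg and Erbb3 and above 0 in Hbegf, and the standard error is widest in Ereg (0.83).

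Replicates 3 and 4 lay wholly above replicates 1 and 2, over both conditions, in 6 of the 9 genes (Areg, Ereg, Tgfa, Nrg1, Egfr and Erbb2), where 23.5% of all 12506 genes tested did so, and wholly below them in 0 of 9, against 9.09% (32.6% in either direction). The split by replicate number was seen in the same libraries and is given as a description. On log2(TPM + 0.1), the difference between replicate numbers was 2.69 in Ereg, 1.04 in Tgfa and 0.93 in Areg, against −0.38, −0.15 and 0.11 between conditions. Egf and Erbb3 differed the other way between replicate numbers, by −0.72 and −0.63, and Egf had the largest difference between conditions on this scale, −1.81. The 6 genes that were higher in replicates 3 and 4 moved with 5 of the 7 fibroblast markers (Col3a1, Pdgfra, Thy1, Dcn and Lum), which lay wholly higher there over both conditions. The other 2 did not, as Col1a1 had means of 165 TPM in replicates 1 and 2 and 160 TPM in replicates 3 and 4, and Col1a2 of 226 and 191 TPM. Markers of other lists also lay wholly higher in replicates 3 and 4, namely Myf5, Vcam1 and Sdc4 of the satellite cell and myoblast list, Cdh5 and Tek of the endothelial list, and Cd68 and Csf1r of the macrophage list. The part of any of these cells in the levels of the 6 genes was not tested.

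**Figure D3:**
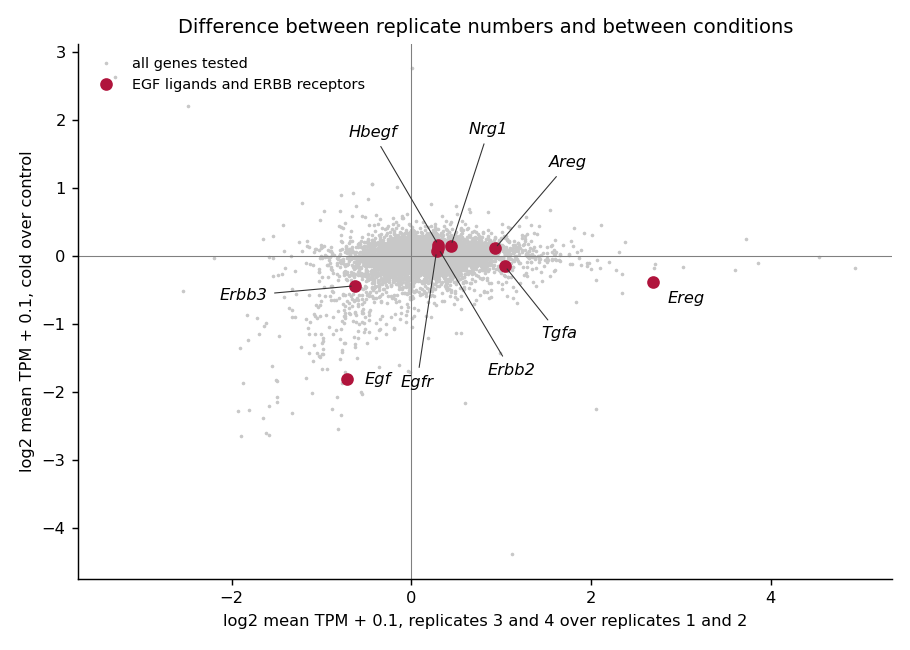
Log2 difference in mean TPM + 0.1 between replicates 3 and 4 and replicates 1 and 2 (horizontal axis) and between cold and control (vertical axis), for the 9 genes (red) and all 12506 genes tested (grey). Ereg lies far to the right (2.69), Egf far below 0 (−1.81), and Hbegf, Nrg1, Egfr and Erbb2 lie near the centre.

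In order of mean TPM over all libraries the genes were Hbegf (16.6), Egfr (14.8), Erbb3 (10.6), Nrg1 (7.84), Erbb2 (5.73), Ereg (2.98), Areg (1.77), Tgfa (0.700) and Egf (0.683). The ranges of every pair of neighbours in this order overlapped. Nrg1 exceeded Erbb2, and Areg exceeded Tgfa, in 8 of 8 libraries, whereas Hbegf exceeded Egfr in 6 of 8. Ereg and Areg had no common order, as Areg was above Ereg in replicates 1 and 2 of both conditions and below it in replicates 3 and 4. Tgfa exceeded Egf in 4 of 4 cold libraries and in 2 of 4 controls, replicates 3 and 4.

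Summed over the 6 ligands, TPM was 24.1, 23.0, 34.6 and 38.6 in control and 24.0, 27.8, 33.7 and 38.9 in cold libraries, so that libraries of the same replicate number were close and the sum did not separate the conditions. Hbegf made up 58.1% to 61.4% of this sum in replicates 1 and 2 and 47.4% to 54.2% in replicates 3 and 4. Ereg made up 2.27% to 3.66% in replicates 1 and 2 and 10.5% to 17.4% in replicates 3 and 4. The share of Egf was 1.97% to 7.07% in control and 0.591% to 1.04% in cold libraries, without overlap. Of the receptor sum, which was 30.6 to 33.8 TPM in control and 28.0 to 31.3 TPM in cold libraries, Egfr made up 38.8% to 52.7% in control and 43.6% to 56.0% in cold libraries. The share of Erbb3 was 29.7% to 45.5% in control and 21.7% to 39.8% in cold libraries, and it was lower in the cold in each of the 4 pairs.

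**Figure D4:**
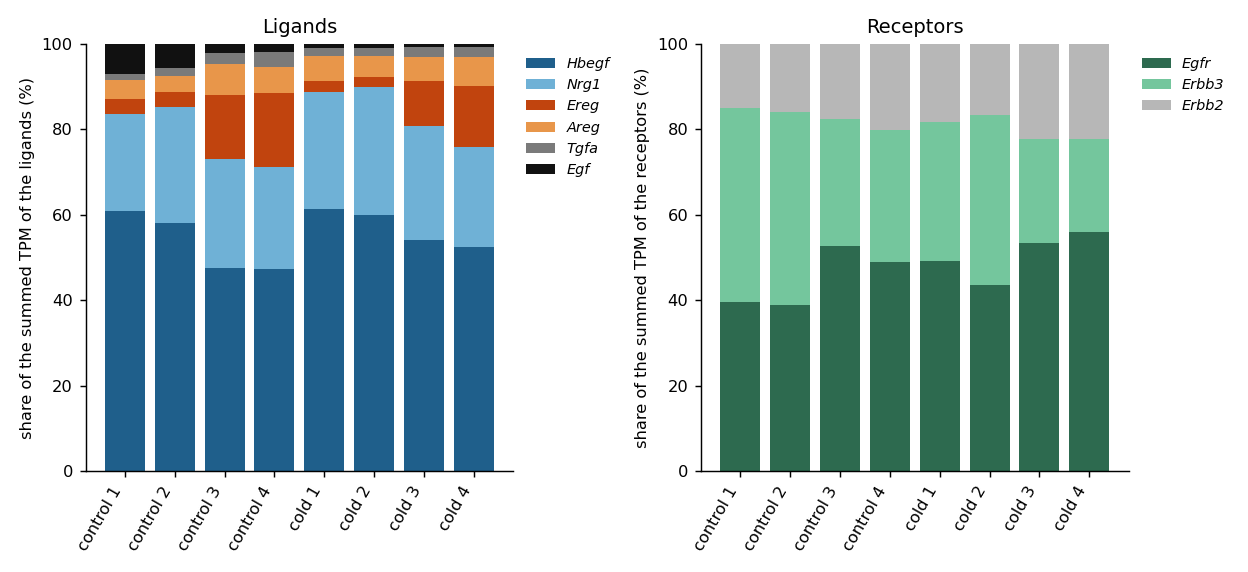
Share of each gene in the summed TPM of the 6 ligands (left) and of the 3 receptors (right) in the 4 control and 4 cold libraries, in percent. Hbegf is the largest part of the ligands in each library (47.4% to 61.4%), and the share of Erbb3 is between 21.7% and 45.5%.

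A gene was called where its log2 fold change was 1 or more, up or down, with an adjusted p under 0.05 from edgeR's quasi-likelihood test over all 12506 genes tested. In the fit without a block 0 of the 9 genes were called, where 0.04% of all genes tested (5 genes) were called lower and 0 higher. Without the fold threshold it was still 0 of 9, against 0.072% of all genes (9 genes, all lower). At an unadjusted p under 0.05 there was 1 gene of the 9 in edgeR, Egf, against 6.70% of all genes. DESeq2 called 1 of the 9 lower, Egf, against 0.472% of the genes it gave an adjusted p (68 genes). With the replicate block, edgeR called 1 of the 9 lower (Egf), against 0.808% of all genes tested (101 genes), and 0 higher, against 0.04%. Without the fold threshold the blocked fit gave 2 of 9 lower (Egf and Erbb3), against 4.07% of all genes, and 0 of 9 higher, against 1.26% (5.33% in either direction). The cold values lay wholly below the control values in 1 of 9 genes (Egf), against 2.41% of all genes, and wholly above them in 0 of 9, against 2.27%. The cold library was the lower of its pair in 4 of 4 pairs in 3 genes (10.5% of all genes) and the higher in 1 gene (12.8%). The log2 fold change was below 0 in 4 of the 9 genes, against 47.1% of all genes tested, and its median was 0.04 over the 9 genes and 0.007 over all genes tested. Because the genes were chosen with this comparison known, nothing is read from these shares.

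Over the 8 libraries, the pattern of Egf was most like those of Mustn1 (Pearson's r = 0.992), Hspb2 (r = 0.991) and Slc22a3 (r = 0.988), among 10487 genes with a mean of at least 1 TPM. Mustn1 is known from muscle and cartilage, Hspb2 is a muscle small heat shock protein, and Slc22a3 an organic cation transporter. Slc22a3 was at 10.9 ± 4.56 TPM before and 2.20 ± 0.390 TPM after the cold (SD, n = 4 each). The pattern of Erbb3 was most like those of Cacna2d1, a calcium channel subunit (r = 0.989), Tnnt3, the fast troponin T gene (r = 0.983), and Lrrc14b (r = 0.976). For Ereg the nearest were the glutamate transporter gene Slc1a3, Pml and Wsb2 (r between 0.996 and 0.997), and for Tgfa the retinoic acid receptor gene Rarb, Flrt2 and Ptp4a2 (r between 0.987 and 0.995). Nearest to the others were Dnajc14, Fhl3 and Kank3 for Hbegf, Seh1l, Nf1 and Asb13 for Areg, Zrsr2, Rictor and Rtkn2 for Nrg1, Atp11a, B3glct and Dock9 for Egfr, and Rexo1, Dzip1l and Rab22a for Erbb2, with r between 0.962 and 0.999. These values of r describe 8 points that share 2 conditions and 4 replicate numbers and fall on 2 sides of the first principal component, and the best of all genes searched were taken for each.

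The genes around the receptors were taken from 5 lists by their known roles, and 66 of their 77 genes had enough counts to be tested. These lists too were chosen with earlier results of these data known. The p-values of their genes, here and in the paragraphs that follow, are thus a description and not independent tests. Among the other members of the family, Nrg2 was the one tested, at 0.650 ± 0.169 TPM before and 0.613 ± 0.305 TPM after the cold (SD, n = 4 each). Erbb4, the remaining receptor, had at most 4 reads in any library, Btc (betacellulin) at most 11, Epgn (epigen) at most 1 and Nrg3 was at 0, and Nrg4 was not analysed here. In edgeR without a block, 0 of the 66 genes had an adjusted p under 0.05 in either direction, and 6 had an unadjusted p under 0.05, against 6.70% of all genes tested. DESeq2 and limma also gave 0 at an adjusted p under 0.05. In the blocked edgeR fit, 1 fell and 7 rose at an adjusted p under 0.05, against 4.07% and 1.26% of all genes. For the counts of lower and higher genes in each list, 47.1% of all genes tested had a log2 fold change below 0.

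The 10 tested genes of ligand shedding had a median log2 fold change of 0.01, with 4 lower, 6 higher and 0 of them at an adjusted p under 0.05 in either edgeR fit. Adam17 and Adam10, the main sheddases of these ligands, were at 25.6 ± 2.80 and 63.3 ± 3.11 TPM before and at 25.1 ± 1.20 and 64.7 ± 2.64 TPM after the cold (SD, n = 4 each). Adam12, a metalloprotease of myoblasts that can release Hbegf, had the highest level of the list, 119 ± 19.3 and 123 ± 12.2 TPM (SD, n = 4 each). The 21 tested relays between receptor and RAS or PI3K had a median of 0.04, with 9 lower, 12 higher and 0 of them past the threshold in either edgeR fit. The most abundant was the adaptor gene Crk, with 121 ± 12.1 TPM before and 131 ± 2.31 TPM after the cold (SD, n = 4 each).

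Of the 20 tested genes that inhibit the receptors or turn them over, 7 were lower and 13 higher, with a median log2 fold change of 0.05. With the replicate block, Errfi1 and Spry2 rose and Socs4 fell, each by a small step. Errfi1, whose product binds and inhibits EGFR and ERBB2, was the most abundant of the list and had 79.5, 78.7, 135 and 122 TPM in control and 98.7, 96.8, 146 and 134 TPM in cold libraries. It was higher in the cold in 4 of 4 pairs, as were 12.8% of all genes tested. Its log2 fold change was 0.20 (standard error 0.04, blocked edgeR adjusted p = 0.00292, against 0.999 without the block). Spry2, a feedback inhibitor of receptor tyrosine kinases, had 28.5, 25.0, 29.4 and 21.3 TPM in control and 31.2, 37.3, 32.1 and 24.9 TPM in cold libraries. It too was higher in the cold in 4 of 4 pairs, with a log2 fold change of 0.25 (standard error 0.06, blocked edgeR adjusted p = 0.0279). Socs4, which promotes the breakdown of EGFR, had 5.65, 6.27, 7.58 and 8.54 TPM in control and 5.51, 6.11, 5.99 and 6.27 TPM in cold libraries. It was lower in 4 of 4 pairs, as were 10.5% of all genes tested, and mostly in replicates 3 and 4. The means were 7.01 ± 1.30 and 5.97 ± 0.327 TPM (SD, n = 4 each), with a log2 fold change of −0.23 (standard error 0.06, blocked edgeR adjusted p = 0.0423). The adjusted p of Errfi1 and Spry2 was above 0.05 without the libraries of replicate 2, and that of Socs4 without those of replicate 3 or of replicate 4. Without replicate 2 the blocked log2 fold change was 0.17 for Errfi1 and 0.14 for Spry2.

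Of the 14 ERK-driven early genes, transcribed within minutes of ERK activation or acting as its feedback inhibitors, cold libraries had the higher fitted level in 13 and the lower in 1, and the median log2 fold change was 0.11. Of all genes tested, 47.1% had a log2 fold change below 0. This list was chosen with earlier results known as well, so its adjusted p-values are given as a description. With the replicate block, 5 rose (Fos, Egr1, Ier2, Ier3 and Myc) and 0 fell at an adjusted p under 0.05, against 1.26% and 4.07% of all genes tested. Fos had 2.13, 2.21, 1.08 and 1.09 TPM in control and 9.22, 18.9, 1.56 and 1.73 TPM in cold libraries. Egr1 had 5.71, 5.39, 2.84 and 2.98 TPM in control and 34.7, 67.0, 2.55 and 2.77 TPM in cold libraries. Both were thus far higher in the cold in replicates 1 and 2, whereas in replicates 3 and 4 Fos was slightly higher and Egr1 slightly lower. The blocked log2 fold changes were 2.11 for Fos (standard error 0.25, adjusted p = 1.09e-05 in edgeR) and 2.29 for Egr1 (standard error 0.35, adjusted p = 0.000213 in edgeR), and 1.40 and 1.33 without the libraries of replicate 2. In replicates 3 and 4 alone they were 0.61 (standard error 0.28) and −0.12 (standard error 0.17), and neither had an adjusted p under 0.05 with edgeR there. The other members moved less. In the blocked edgeR fit Ier2 rose by 0.58 on the log2 scale (standard error 0.09, adjusted p = 0.000369). In the same edgeR fit Ier3 rose by 0.27 (standard error 0.08, adjusted p = 0.0488) and Myc by 0.21 (standard error 0.05, adjusted p = 0.0104). All 3 were higher in 4 of 4 pairs, as were 12.8% of all genes tested. Myc had the highest mean TPM of the list over all libraries, close to Fosl1, which was above it in control (78.1 against 75.6 TPM) and below it in cold libraries (85.1 against 88.4 TPM). The adjusted p of Ier3 was above 0.05 without the libraries of replicate 1 or of replicate 2, and that of Myc without those of replicate 3. The blocked log2 fold change of Ier3 was 0.15 without replicate 2. It was 0.41 in replicates 1 and 2 alone and 0.13 in replicates 3 and 4 alone. DESeq2 with a block gave an adjusted p under 0.05 for Errfi1, Ier2 and Myc (0.283% of the genes it tested were higher), but not for Fos, Egr1, Ier3, Spry2 and Socs4. Its log2 fold changes were smaller and less certain for Fos, 1.61 (standard error 0.56), and for Egr1, 1.46 (standard error 0.81).

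**Figure D5:**
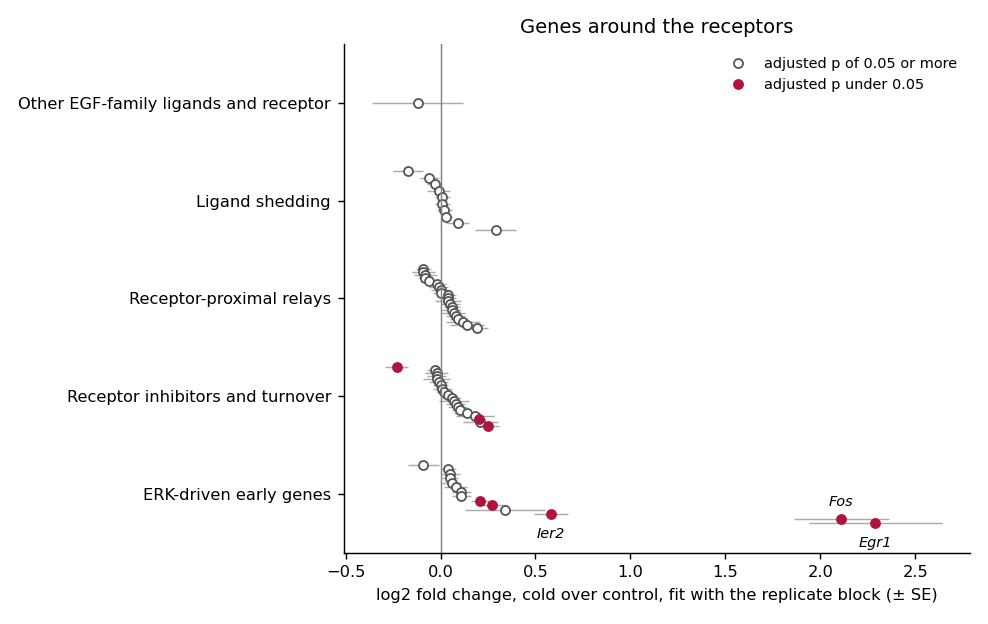
Log2 fold change of cold over control in the edgeR fit with the replicate block (± standard error) for the 66 tested genes of 5 lists around the receptors, with filled points at an adjusted p under 0.05. Most genes lie near 0, and Fos (2.11) and Egr1 (2.29), which were high in cold replicates 1 and 2 alone, lie far to the right.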

How the data were processed

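RNA of hamster SCs was sequenced with paired ends at a sequencing company, with HISAT and HISAT2 named in the submitters' processing notes. The counting program, genome build and strand setting are not given in the sources used here, and no coordinates are given. The authors deposited expected counts per gene, which are not normalized and are 96.4% to 96.6% whole numbers. They also deposited TPM values, scaled within each library, and normalized counts, a signal equal to the count rounded up times 1 factor per library (0.924 to 1.02), which was not analysed further. All 17590 gene identifiers matched a RefSeq table of assembly BCM_Maur_2.0, used for names only. The 9 members had whole counts in every library.

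Expected counts were rounded and fitted with edgeR 4.0.16 in R 4.3.3 (filterByExpr, TMM, quasi-likelihood F test) over 12506 genes, with Benjamini-Hochberg adjustment. A standard error was taken from the fold change and the root of its F value. Counting error of a pair was taken as the Poisson error of both counts and covers counting error only. Control and cold libraries sharing a replicate number were treated as pairs, and that number served as the block in further fits. Across genes, deviations from the group means correlated at 0.60, 0.61, 0.64 and 0.65 between libraries of the same number. Between different numbers, r was nearly as high within replicates 1 and 2 (0.58 and 0.56). It was lower within replicates 3 and 4 (0.43 and 0.47). Between replicates 1 and 2 on one side and 3 and 4 on the other, r was −0.60 to −0.55. Much of the correlation thus followed this split, and pairing by single number rests on smaller differences, least within replicates 1 and 2. The study calls the libraries of a group biological replicates, but no source used here says whether they are separate animals or cultures. The p-values refer to these libraries alone, with a spread per gene that the fits draw in part from other genes. Alternatives were DESeq2 1.42.0, limma 3.58.1 on log2(TPM + 0.1), other scalings and filters, and fewer libraries. In a simulated table of 12440 genes, 200 of which were shifted by a log2 fold of 2, edgeR recovered 198 without and 200 with the block, with 1 false call each. The shifted genes all had higher mean counts than Egf, Areg and Tgfa, so this recovery does not cover genes at their level. Named genes are the 9 members, list genes with an adjusted p under 0.05 in either edgeR fit, the most abundant gene of each list, and the 3 genes most like each member. Adam10, Adam17, Fosl1, the family genes that failed the filter, and the marker genes are named outside this rule, for their roles or their values. Members, lists and markers were chosen with earlier results of these data known.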

Additional observations from a re-analysis of the deposited data

How the results depend on the processing

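The sign of the log2 fold change was kept in 25 of 25 alternatives by Egf (−2.61 to −0.74), Hbegf (0.06 to 0.22), Erbb2 (0.01 to 0.15) and Erbb3 (−0.67 to −0.32). It turned in 4 of 25 for Areg, Nrg1 and Egfr, in 3 for Tgfa and in 1 for Ereg, all with changes that were not called. The count of the 9 genes called lower was 0 in edgeR with TMM, the usual filter and no block. It was 1 (Egf) with the replicate block, with DESeq2, with DESeq2 and a block, without a filter, and in replicates 1 and 2 alone, but 0 in replicates 3 and 4 alone, with DESeq2's size factors in edgeR, library totals, a mean of 10 counts in each group and the limma settings, and 0 to 1 when single libraries were left out (1 without control replicate 3). In the blocked fits leaving out both libraries of 1 number it was 1 in all 4, so that 10 of the 25 alternatives called Egf. The blocked edgeR fits called 2 pathway genes (Fos and Egr1), also without any 1 number, and replicates 1 and 2 alone called 2, whereas DESeq2 with a block and replicates 3 and 4 alone called 0. Of all genes tested, 5 were called lower and 0 higher, against 101 and 5 with the replicate block (81, 97, 131 and 114 lower and 7, 4, 4 and 3 higher without replicates 1 to 4), 68 and 0 with DESeq2, 91 and 1 with DESeq2 and a block, 8 lower with library totals, 15 without a filter, 3 with a mean of 10 counts in each group, 3 with limma at each filtered pseudocount, 175 and 8 in replicates 1 and 2 alone, 27 and 1 in replicates 3 and 4 alone, and 0 to 33 and 0 to 1 when single libraries were left out. In edgeR, the replicate block changed the call of Egf alone among the 9 genes. Erbb3 was not called, but its adjusted p fell under 0.05 with the block. Areg, Tgfa and cold Egf rest on 10 to 79 reads per library, where counting error is a large part of each value. DESeq2 with a block and the blocked fits without 1 number were chosen after seeing the data.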
